A study of Mus musculus with 53 samples.

Results

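The serotonin receptor genes are taken here as every gene whose symbol is Htr followed by a digit. The deposited count table held 6 of them among 12372 genes: Htr1a, Htr1b, Htr2a, Htr2c, Htr5a and Htr7. Htr4 and the other receptor genes of the family were not analysed here. RNA sequencing had been done on 53 dissected tissue samples from 14 male mice aged 74 to 77 weeks (17.5 months), 1 library per mouse and region. The wild-type mice were C57BL/6. The SCA3 mice were MJD84.2 mice, hemizygous for a transgene with the whole human ATXN3 gene, its CAG repeat expanded, which models spinocerebellar ataxia type 3. The human promoter drives the transgene in all tissues, the mice keep their own Atxn3 gene, and beam-walk tests at younger ages found no ataxia. The SCA3 mice weighed less than the wild-type mice. Brainstem came from 8 wild-type and 6 SCA3 mice, cerebellum from 7 and 6, cortex from 7 and 6, and striatum from 8 and 5. Libraries are identified below by region, genotype and the number of the mouse.

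Serotonin is made by neurons of the brainstem raphe nuclei, whose axons reach the whole brain. All 6 genes encode receptors with 7 membrane spans that signal through G proteins. Receptors of the Htr1 group, and the Htr5a receptor, couple to Gi/o and lower cAMP. The Htr2 group couples to Gq and phospholipase C, and the Htr7 receptor couples to Gs and raises cAMP. The Htr1a receptor inhibits raphe neurons and also hippocampal and cortical neurons, and the Htr1b receptor sits largely on axon terminals, including those of striatal projection neurons. The Htr2a receptor is best known from cortical pyramidal cells, and Htr2c is abundant in choroid plexus as well as in neurons.

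Levels are given as CPM (the usual per-library scaling of read counts, here with TMM-adjusted library totals), and as CPM per kilobase of exon where genes are compared with each other. Library totals were 31.7 to 76.7 M counts, and the receptor genes had between 13 and 15438 reads in a library, so that even the lowest receptor counts were above 0. The summed level of thalamic markers was highest in 2 striatal libraries, at 2320 CPM in wild-type mouse 7267058 and 3720 CPM in wild-type mouse 7267059, against 372 to 802 CPM in the other striatal libraries. Single markers differed: the wild-type striatal median was above the highest SCA3 striatal value for Prkcd (102 and 23.2 CPM) and below it for Tcf7l2 (8.04 and 33.2 CPM) and Slc17a6 (31.9 and 71.3 CPM). Summed markers of striatal projection neurons were 3110 to 12800 CPM in wild-type and 8110 to 12100 CPM in SCA3 striatum, 14 of 15 listed genes being measured. In brainstem, cerebellum and cortex that sum stayed at or under 5660 CPM. Markers of serotonergic neurons were highest in brainstem, and only 3 of 8 listed genes (Slc18a2, Ddc and Gata2) were measured, and their sum ranged from 49.7 to 387 CPM there. The most specific ones, Tph2, Slc6a4 and Fev, were not analysed here. Fewer cells of a type and less RNA per cell cannot be told apart in these tissue samples.

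The genes lie on separate chromosomes (GRCm38, GENCODE vM21). Htr1a is a single-exon gene at chr13:105443639-105448122 on the plus strand, Htr2a has 3 exon blocks at chr14:74640840-74709494 on the plus strand, and Htr7 has 6 at chr19:35958734-36057507 on the minus strand. Htr1b is at chr9:81628291-81633828 on the minus strand, Htr5a at chr5:27842149-27855088 on the plus strand, and Htr2c at chrX:146962513-147197277 on the plus strand. An antisense gene, D430036J16Rik, overlaps 852 exonic bases of Htr1b. The libraries carry no strand information, so reads from the pair cannot be told apart and Htr1b levels are uncertain to that extent. Introns of Htr2c host several miRNA genes and a snoRNA gene, none of which overlaps its exons.

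The upstream sequences below belong to the 3 receptors with the largest striatal differences. They are Htr2a and Htr7, called in striatum in opposite directions, and Htr1a, which varied with Htr7 from library to library. They are RefSeq promoter windows (GRCm38.p6), cut where the first annotated transcript begins, and are printed 5′ to 3′ on the gene's strand, with capitals marking the GC box GGGCGG or its reverse complement.
Htr2a, chr14:74640624-74640839, plus strand: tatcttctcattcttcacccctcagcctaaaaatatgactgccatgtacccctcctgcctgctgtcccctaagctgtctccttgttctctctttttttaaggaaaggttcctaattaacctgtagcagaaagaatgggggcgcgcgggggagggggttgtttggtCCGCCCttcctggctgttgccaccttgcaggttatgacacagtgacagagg
Htr1a, chr13:105443443-105443638, plus strand: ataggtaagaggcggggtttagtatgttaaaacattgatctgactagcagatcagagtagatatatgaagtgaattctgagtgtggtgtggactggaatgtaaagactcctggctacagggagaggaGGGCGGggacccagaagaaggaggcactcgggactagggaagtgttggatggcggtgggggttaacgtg
Htr7, chr19:36057508-36057610, minus strand: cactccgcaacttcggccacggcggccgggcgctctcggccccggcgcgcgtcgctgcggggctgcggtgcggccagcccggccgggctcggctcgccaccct

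Motifs were searched on both strands in the full 250 bases before each RefSeq start. The GC box was found in 1 copy each in Htr1a and Htr2a and in 32.7% of 32851 such windows. The letters TGACG, part of the cAMP response element bound by CREB, was found in 1 copy in Htr7, outside the stretch printed above, and in 17.8% of all windows. None of the 6 windows held the full palindrome TGACGTCA (1.55% of all windows), which contains TGACG, or the letters TATAAA (12.4%). The letters CCAAT were found in 2 copies in Htr1b and 1 in Htr2c and in 33.8% of all windows. The Htr7 window was 82% G and C, against 50.4% for Htr1a, 52.8% for Htr2a and a median of 52.4% over all windows. A match is a description of these letters only.

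Per kilobase of exon, Htr2c had the highest mean of the 6 receptors in each wild-type region. Differences between receptors were not tested. In wild-type brainstem Htr2c was the highest at 18.2 ± 1.51 CPM per kb (SD, n = 8), followed by Htr7 at 7.49 ± 0.766 and Htr1a at 6.87 ± 1.14 CPM per kb. Htr1b was the lowest there at 0.752 ± 0.111 CPM per kb, with Htr5a at 2.99 ± 0.421 and Htr2a at 2.304 ± 0.781 CPM per kb in between. The Htr2c means were lower in wild-type cortex (11.5 ± 6.13, n = 7), striatum (10.97 ± 3.35, n = 8) and cerebellum (3.73 ± 2.24, n = 7). In striatum Htr1a (4.80 ± 3.82) and Htr7 (4.79 ± 2.56) had close means in CPM per kb, each with a wide spread. The lowest means were those of Htr1b in cortex (0.869 ± 0.274) and Htr2a in striatum (2.05 ± 0.786) and in cerebellum (0.325 ± 0.162 CPM per kb).

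Htr1b, the terminal autoreceptor and heteroreceptor, was highest in striatum. Its wild-type striatal level was 10.9 ± 4.65 CPM (SD, n = 8), with a lowest, median and highest value of 5.68, 9.30 and 19.0 CPM. Wild-type brainstem libraries held 2.95 to 4.71 CPM, cerebellar ones 3.19 to 4.62 CPM and cortical ones 2.44 to 6.69 CPM. The striatal level was 3.08-fold that of brainstem (FDR 3.1e-14), 2.79-fold that of cerebellum (FDR 1.7e-11) and 2.65-fold that of cortex (FDR 2.8e-09) by edgeR's likelihood ratio test. The count table kept only genes above a minimum mean CPM over all samples. Group means of Htr1b outside striatum, 3.19 to 4.54 CPM, were near that minimum, so the gene entered the table through its striatal level. These FDRs are therefore no independent support for a striatal excess. The other 3 regions could not be put in order, since neighbouring levels had FDRs of 0.78 (cortex and cerebellum) and 0.54 (cerebellum and brainstem).

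Htr5a and Htr2a were highest in cortex. Wild-type Htr5a was 23.3 ± 4.24 CPM in cortex (n = 7), 16.1 ± 2.27 CPM in brainstem (n = 8), 14 ± 1.83 CPM in striatum (n = 8) and 9.14 ± 0.946 CPM in cerebellum (n = 7). Cortex was above brainstem (FDR 9.7e-05) and striatum above cerebellum (FDR 9.6e-06), while brainstem and striatum did not differ past the threshold (FDR 0.15). Wild-type Htr2a was 17.99 ± 3.13 CPM in cortex, 12.9 ± 4.38 CPM in brainstem, 11.5 ± 4.41 CPM in striatum and 1.82 ± 0.906 CPM in cerebellum. Its 3 upper levels were close, with FDRs of 0.072 between cortex and brainstem and 0.55 between brainstem and striatum, and the cortical level was above the striatal one (1.57-fold, FDR 0.027). The cerebellar level was 6.29-fold lower than the striatal one (FDR 2.5e-22).

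Htr1a, Htr7 and Htr2c had their highest mean in brainstem and their lowest in cerebellum. Wild-type Htr1a was 30.8 ± 5.11 CPM in brainstem, 24.6 ± 7.16 CPM in cortex, 21.5 ± 17.1 CPM in striatum and 5.11 ± 4.27 CPM in cerebellum. Wild-type Htr7 was 25.4 ± 2.60 CPM in brainstem, 16.3 ± 8.72 CPM in striatum, 15.7 ± 5.70 CPM in cortex and 3.72 ± 2.33 CPM in cerebellum. Wild-type Htr2c was 170 ± 14.1 CPM in brainstem, 108 ± 57.2 CPM in cortex, 102 ± 31.2 CPM in striatum and 34.8 ± 20.9 CPM in cerebellum. For each of these 3 genes the cerebellum was below its neighbour in the order (FDR 3e-04, 1.6e-07 and 0.00014), and no pair of the 3 upper regions passed the threshold (lowest FDR 0.077 for Htr7, 0.071 for Htr2c and 0.37 for Htr1a).

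Across the 6 pairs of wild-type regions, 21 of 36 receptor comparisons passed an FDR of 0.05. The counts were 5 of 6 receptors between brainstem and cerebellum, where 72.6% of all genes were called, 1 between brainstem and cortex (65.4%), 1 between brainstem and striatum (64.2%), 5 between cerebellum and cortex (69.7%), 6 between cerebellum and striatum (69.5%) and 3 between cortex and striatum (34.4%). These comparisons share mice, since most mice gave several regions. With the mouse as a fixed replicate block in wild-type libraries alone, no receptor gained or lost a call between regions. Limma-voom without a block gained 4 calls: brainstem against cortex for Htr2a (FDR 0.0085) and Htr7 (FDR 0.021), and brainstem against striatum for Htr1a (FDR 0.029) and Htr7 (FDR 0.0041). Adding the mouse as a random replicate block kept these 4 and gained Htr2c between brainstem and cortex (FDR 0.036). The call of Htr2a between cortex and striatum was lost with RNA integrity numbers (RIN) of at least 7 (FDR 0.10), and without mouse 7267055 (FDR 0.058), 7267058 (FDR 0.061), 9083373 (FDR 0.063) or 9083375 (FDR 0.055). The same RIN limit gained calls of Htr2a between brainstem and cortex (FDR 0.044) and of Htr7 between brainstem and striatum (FDR 0.045). Between brainstem and cortex, Htr2a also gained a call without mouse 7267058 (FDR 0.046), 7267059 (FDR 0.034) or 9082857 (FDR 0.050), and Htr7 without mouse 9083371 (FDR 0.042).

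**Figure D1:**
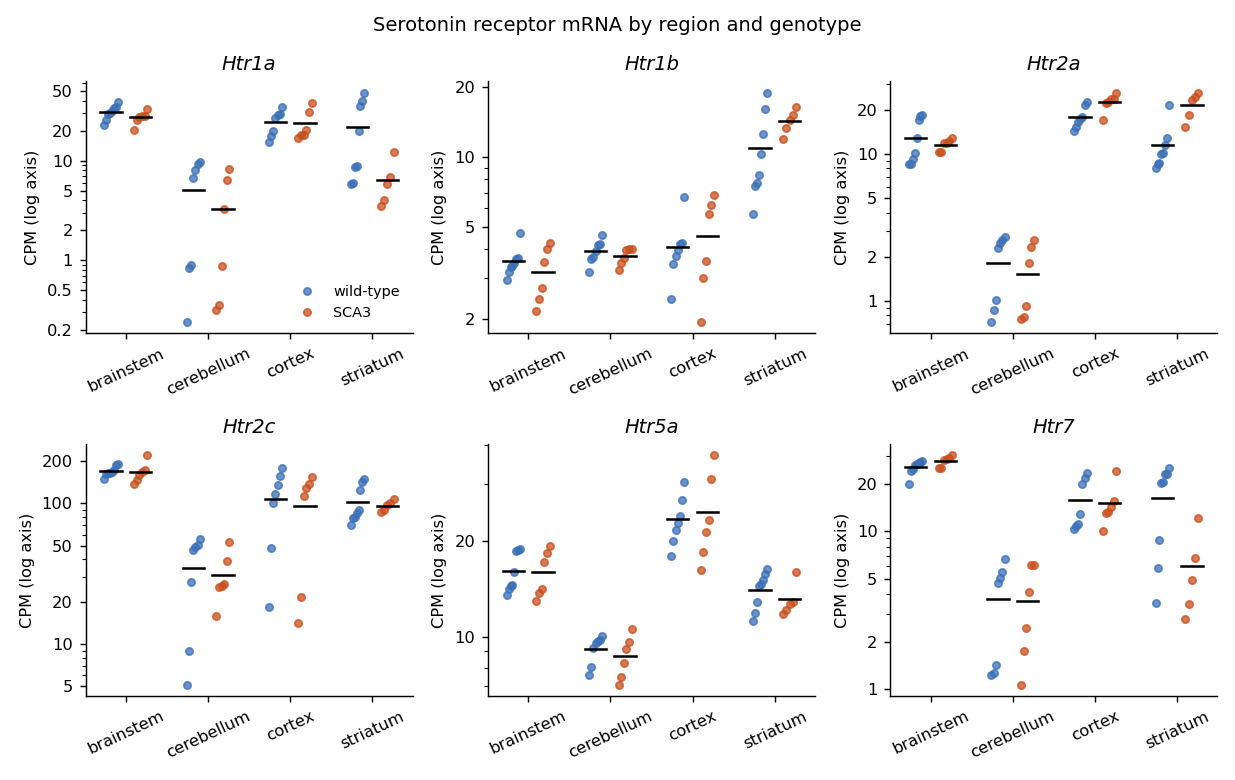
CPM on a log axis of the 6 receptor genes in each region, with wild-type libraries in blue and SCA3 libraries in orange, 1 point per library and the mean of each group as a black bar. Htr1b stands highest in striatum, all other receptors have their lowest group means in cerebellum, and the striatal genotypes part for Htr2a, Htr7 and Htr1a without full separation.

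Between genotypes, only striatum had called receptors. Htr2a was higher and Htr7 lower in SCA3 striatum, 2 of 6 receptors, where 7.54% of all genes were called. Htr1a was lower by a larger fold and missed the threshold in edgeR's likelihood ratio test. The number of striatal receptors called was 2 by the quasi-likelihood test, 3 by DESeq2, which added Htr1a (FDR 0.039), and 1 by limma-voom, which called Htr2a (FDR 0.0087). Htr1b, Htr2c and Htr5a were not called.

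Htr2a, the Gq-coupled receptor, measured 18.5, 23.6, 15.4, 26.1 and 24.4 CPM in the 5 SCA3 striatal libraries, in the order of mice 7267054, 7267056, 9082853, 9083514 and 9083515. The 8 wild-type striatal libraries had a lowest value of 8.03, a median of 10.2 and a highest of 21.6 CPM. All SCA3 values were above 7 of the 8 wild-type values, and wild-type mouse 9082857, at 21.6 CPM, was the exception. The means were 21.6 ± 4.46 and 11.5 ± 4.41 CPM, a log2 fold change of 0.91 ± 0.27 (SE) or 1.88-fold, with an FDR of 0.015 by edgeR's likelihood ratio test. The SCA3 striatal level was thus near the cortical ones, 22.7 ± 3.07 CPM in SCA3 and 17.99 ± 3.13 CPM in wild-type.

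Htr7, the Gs-coupled receptor, measured 3.48, 6.76, 12.1, 4.90 and 2.77 CPM in the same 5 SCA3 libraries. The wild-type values were 22.9, 23.1, 20.6, 5.85, 3.54, 20.2, 25.3 and 8.85 CPM in mice 7267055, 7267058, 7267059, 9082857, 9083371, 9083372, 9083373 and 9083375. Wild-type mice fell far apart: 5 of the 8 were above every SCA3 mouse, and the remaining ones lay within the SCA3 range. The means were 6.00 ± 3.72 CPM in SCA3 and 16.3 ± 8.72 CPM in wild-type, a log2 fold change of -1.44 ± 0.39 (SE), or 2.72-fold lower, with an FDR of 0.014 by edgeR's likelihood ratio test. With limma-voom Htr7 was not called, either without a replicate block (-1.35, FDR 0.054) or with the mouse as a random replicate block (-1.37, FDR 0.054).

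Htr1a, the Gi/o-coupled receptor, had SCA3 values of 3.48, 5.89, 6.81, 12.1 and 3.99 CPM in that order. Its wild-type values were 48.3, 8.84, 8.65, 5.95, 5.84, 35.2, 39.7 and 19.7 CPM. A set of 4 wild-type mice (7267055, 9083372, 9083373 and 9083375) stood above every SCA3 mouse, and the other 4 were within the SCA3 range. The log2 fold change was -1.74 ± 0.57 (SE), 3.34-fold lower, with an FDR of 0.054 by edgeR's likelihood ratio test, and the FDR was 0.046 with the mouse number series (the leading digits of the mouse numbers) as a covariate. Mice 7267058 and 7267059 were high in Htr7 but not in Htr1a, so the wild-type mice that were high differed between the 2 genes.

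Htr1b measured 13.3, 16.5, 14.4, 12.0 and 15.2 CPM in SCA3 striatum. It had a log2 fold change of 0.39 ± 0.23 (FDR 0.28), and 5 of the 8 wild-type libraries were below every SCA3 library. Htr2c was 96.5 ± 8.25 CPM in SCA3 and 102 ± 31.2 CPM in wild-type striatum (log2 fold change -0.08, 95% interval -0.90 to 0.73). Htr5a was 13.1 ± 1.67 and 14 ± 1.83 CPM (log2 fold change -0.10, 95% interval -0.38 to 0.19), a narrower interval than that of Htr2c.

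Markers of other cells moved with genotype in striatum too, where 7.54% of all genes were called. Thalamic markers were called lower in SCA3 for 7 of 12 genes by edgeR's likelihood ratio test and for 1 by limma-voom, with sums of 377 to 3720 CPM in wild-type and 372 to 731 CPM in SCA3. Striatal projection neuron markers were called for 0 of 14 genes by edgeR, DESeq2 and limma-voom, 2 having an unadjusted p below 0.05, and all 14 had positive log2 fold changes, with a median of 0.51. Oligodendrocyte markers were called lower for 3 of 8 genes (sums 6140 to 18000 CPM in wild-type and 5620 to 8530 CPM in SCA3) and astrocyte markers for 2 of 7 (3780 to 5450 and 3990 to 4440 CPM). Wild-type mice 9082857 and 9083371, whose Htr7 and Htr1a values were the lowest of the wild-type, had the highest projection neuron sums (12800 and 12700 CPM).

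The calls were recomputed with these markers. Within striatal libraries alone, the log2 fold change of Htr7 was -1.44 (FDR 0.15), -0.96 (FDR 0.41) with a thalamic score (mean log2 CPM of the markers) as covariate and -0.53 (FDR 1) with the projection neuron score. That of Htr2a was 0.91 (FDR 0.021) in striatal libraries alone, 0.69 (FDR 0.028) with the thalamic score and 0.61 (FDR 0.15) with the projection neuron score. Htr1b, at 0.39 (FDR 0.50) alone, came to 0.0048 with the projection neuron score. Without the striatal libraries of wild-type mice 7267058 and 7267059, Htr7 stood at -1.27 (FDR 0.091), Htr2a at 0.79 (FDR 0.12) and Htr1a at -2 (FDR 0.060). Htr1a was at -1.87 (FDR 0.15) with the thalamic score and -1.20 (FDR 1) with the projection neuron score. Htr2a, Htr7 and Htr1a kept their signs in these fits, and the Htr1b difference was near 0 with the projection neuron score. The score fits and the exclusion of 2 libraries were chosen after the data were seen, and what part the other cells have in the differences was not tested further.

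Some calls changed when 1 mouse was left out, while the log2 fold changes stayed between 0.831 and 1.1 for Htr2a and between -1.86 and -1.26 for Htr7. Without SCA3 mouse 7267056 or 9083515 Htr2a was at 0.88 (FDR 0.061) and 0.86 (FDR 0.072), no longer called. Without SCA3 mouse 7267054 or 9083515 Htr7 was at -1.30 (FDR 0.087) and -1.26 (FDR 0.095). Htr1a gained a call without wild-type mouse 9082857 (FDR 0.025), 9083371 (FDR 0.023) or 9083375 (FDR 0.041), or without SCA3 mouse 9083514 (FDR 0.027). Mouse numbers fall into series by their first digits. In the largest series (7 mice), where 0.242% of all genes were called, Htr2a was at 1.22 (FDR 0.15) and Htr7 at -1.91 (FDR 0.29). The second (5 mice) set SCA3 mice 7267054 and 7267056 against wild-type mice 7267055, 7267058 and 7267059. There Htr2a was at 1.22 (FDR 0.0046) and Htr7 at -2.12 (FDR 0.00098), with 18.6% of all genes called, against 7.54% with all libraries. With a RIN of at least 7, Htr2a was at 0.88 (FDR 0.11) and Htr7 at -1.08 (FDR 0.22), where 1.12% of all genes were called. This limit left out the striatal libraries of wild-type mice 7267055 and 7267058 and SCA3 mouse 7267054. With RIN as a covariate on all libraries Htr2a and Htr7 kept their calls.

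**Figure D2:**
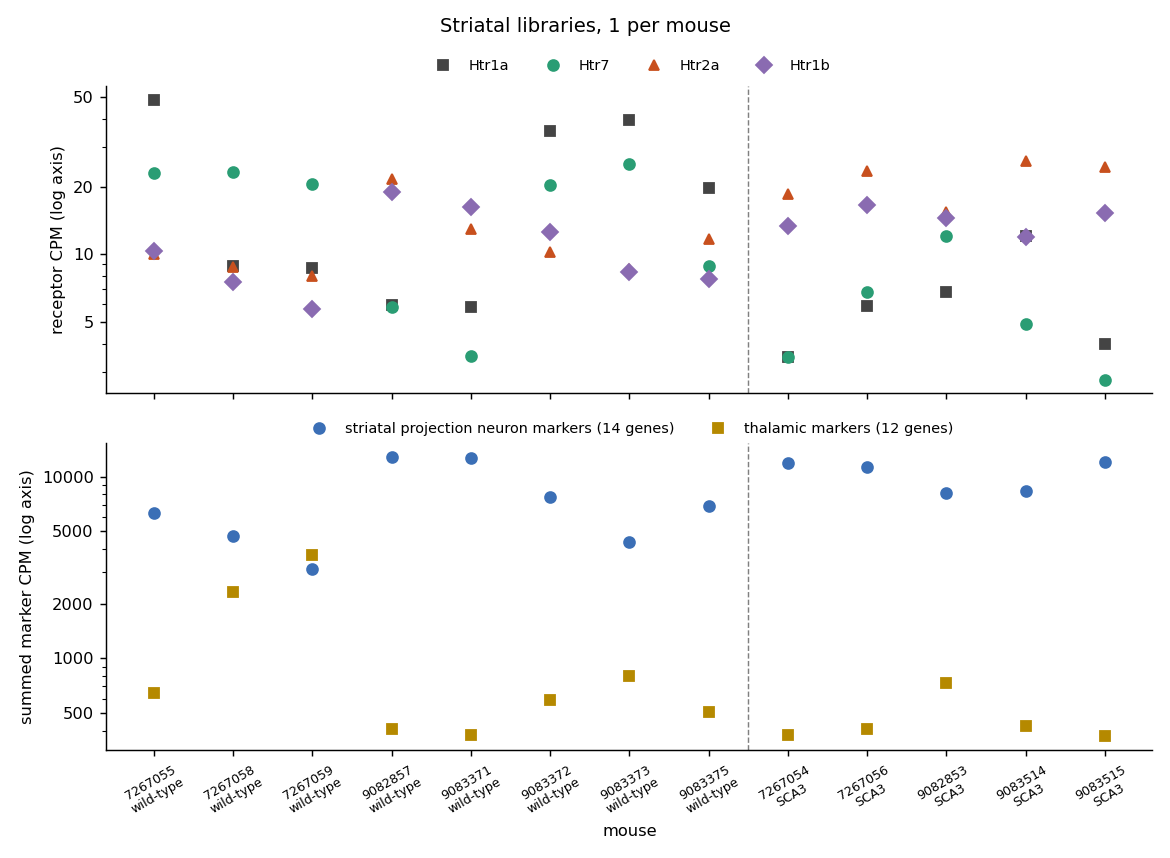
Receptor CPM (upper panel) and summed CPM of striatal projection neuron and thalamic markers (lower panel), both on log axes, in the 13 striatal libraries, wild-type mice left of the dashed line and SCA3 mice right of it. Wild-type mice 7267058 and 7267059 carry the 2 highest thalamic sums, and mice 9082857 and 9083371 resemble the SCA3 mice in low Htr7 and Htr1a and high projection neuron sums.

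In the other regions no receptor was called by edgeR, nor by the quasi-likelihood test, DESeq2 or limma-voom, and none had an unadjusted p below 0.05. The shares of all genes called were 1.92% in brainstem, 0.0647% in cerebellum and 0.154% in cortex. In brainstem, log2 fold changes of the 6 receptors lay between -0.18 (Htr1a) and 0.12 (Htr7), and the narrowest interval was that of Htr5a, from -0.28 to 0.25. Brainstem Htr7 was 24.98 to 30.3 CPM in SCA3 and 19.9 to 27.8 CPM in wild-type, with 4 of 6 SCA3 libraries above every wild-type library. Brainstem Htr1a was 20.2 to 33.1 CPM in SCA3 and 22.8 to 38.9 CPM in wild-type. The genotypes overlapped for every receptor there. Htr2a in wild-type brainstem ranged from 8.53 to 18.6 CPM, and every SCA3 value (10.3 to 12.8 CPM) lay inside that range.

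In cortex the largest receptor difference was that of Htr2a, at 22.7 ± 3.07 CPM in SCA3 (n = 6) and 17.99 ± 3.13 CPM in wild-type (n = 7). Its log2 fold change was 0.33 ± 0.26 (SE), with a 95% interval from -0.18 to 0.845, and 4 of 6 SCA3 libraries were above every wild-type library. The FDR was 1. Cortical Htr7 (-0.07), Htr1a (-0.05), Htr5a (0.07), Htr1b (0.14) and Htr2c (-0.18) were closer to 0 on the log2 scale. In cerebellum the largest was Htr1a, at -0.65 ± 0.56 (SE), with an interval from -1.75 to 0.44. Its values ran from -1.18 (without mouse 9082853) to -0.406 (without mouse 9083514) when 1 mouse was left out. Cerebellar Htr2a was at -0.25 (-0.455 to -0.104 with 1 mouse left out), Htr2c at -0.17 (-0.387 to -0.016) and the rest between -0.07 and -0.05.

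**Figure D3:**
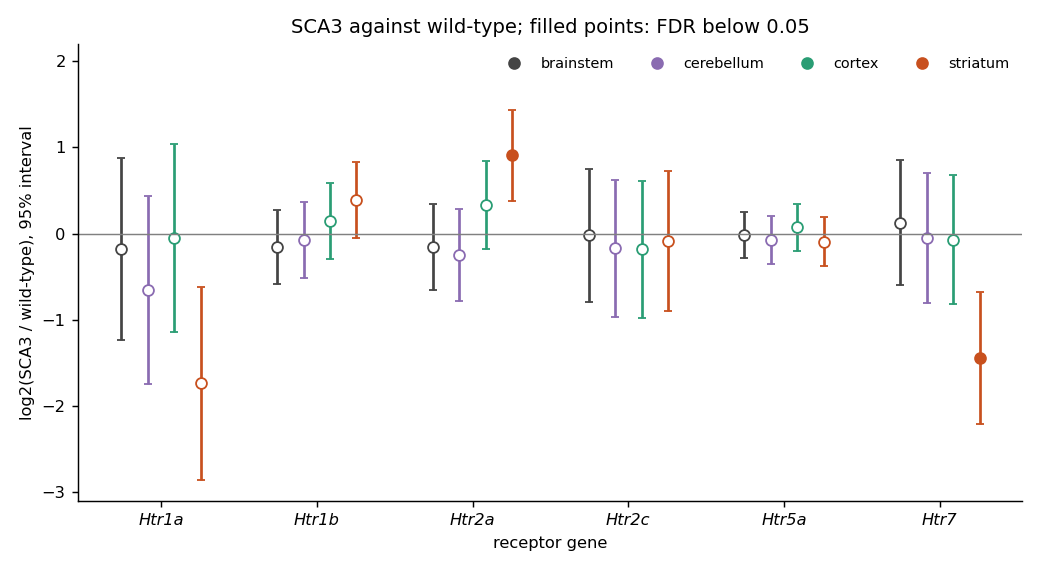
Log2 ratio of SCA3 over wild-type for each receptor and region, with 95% intervals, filled where the FDR was below 0.05. Only striatal Htr2a (0.91) and Htr7 (-1.44) are filled, and the intervals of Htr1a are the widest and those of Htr5a the narrowest.

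Tests over all regions together called no receptor. The combined test, which called 4.73% of all genes, gave FDRs of 0.081 for Htr2a, 0.15 for Htr7 and 0.30 for Htr1a, and 3 receptors had an unadjusted p below 0.05. Limma-voom called 1 of them, Htr2a (FDR 0.034), and edgeR's quasi-likelihood test and DESeq2 none. In edgeR's combined test Htr2a was called without mouse 9082853 (FDR 0.0195), 9082857 (FDR 0.00604) or 9083375 (FDR 0.0357), and Htr7 without mouse 9082853 (FDR 0.0316) or 9083371 (FDR 0.0324). The test of region dependence, which called 0.218% of all genes, gave 0.26 for Htr2a and 0.39 for Htr7. None of the tools called a receptor in that test, and 2 had an unadjusted p below 0.05, so a difference of the SCA3 effect between regions was not shown for any receptor.

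The spread among mice of one group differed widely between receptors. The biological coefficient of variation in the edgeR fit was 69.2% for Htr1a, 50.5% for Htr2c, 47.4% for Htr7, 32.4% for Htr2a, 27.1% for Htr1b and 17.2% for Htr5a, against a median of 11.3% over all genes. The value of Htr1a lay at percentile 99.5 of all genes. Wild-type striatal Htr1a spanned 8.27-fold from lowest to highest and wild-type cerebellar Htr1a 40.7-fold, while brainstem Htr1a spanned only 1.71-fold.

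In cerebellum several receptors were low in the same libraries. Htr1a was 0.240 to 0.893 CPM in 6 of 13 libraries and 3.25 to 9.76 CPM in the other 7. The 6 low ones were wild-type mice 7267059, 9083371 and 9083375 and SCA3 mice 7267056, 9083513 and 9083514, so both genotypes were present among the low and the high libraries. The same 6 libraries held the 6 lowest values of Htr7 (up to 2.44 CPM, the next being 4.11) and of Htr2a (up to 1.02 CPM, the next being 1.82). They also held 5 of the 6 lowest Htr2c and Htr5a values and only 1 of the 6 lowest Htr1b values. The sum of the 3 measured genes of the serotonergic list had its 6 lowest values, 9.75 to 13.3 CPM, in the same libraries, and was 14.2 to 37.5 CPM in the others. These genes (Slc18a2, Ddc and Gata2) are not the most specific of that list, so the sum does not identify serotonergic neurons. Cerebellar granule and Purkinje cell markers, 5 of 9 measured, had none of their 6 lowest sums in those libraries. Choroid plexus markers varied from 147 to 3330 CPM (5 of 11 measured) and shared 2 of their 6 lowest. Oligodendrocyte and microglial sums shared 5 of 6 each (2720 to 5020 and 135 to 185 CPM over all 13 libraries), striatal projection neuron markers 4, and the remaining lists 0 to 2. Their part in the receptor levels was not tested. Some sharing arises for any list when 6 of 13 libraries are taken, and the share over all genes was not computed.

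**Figure D4:**
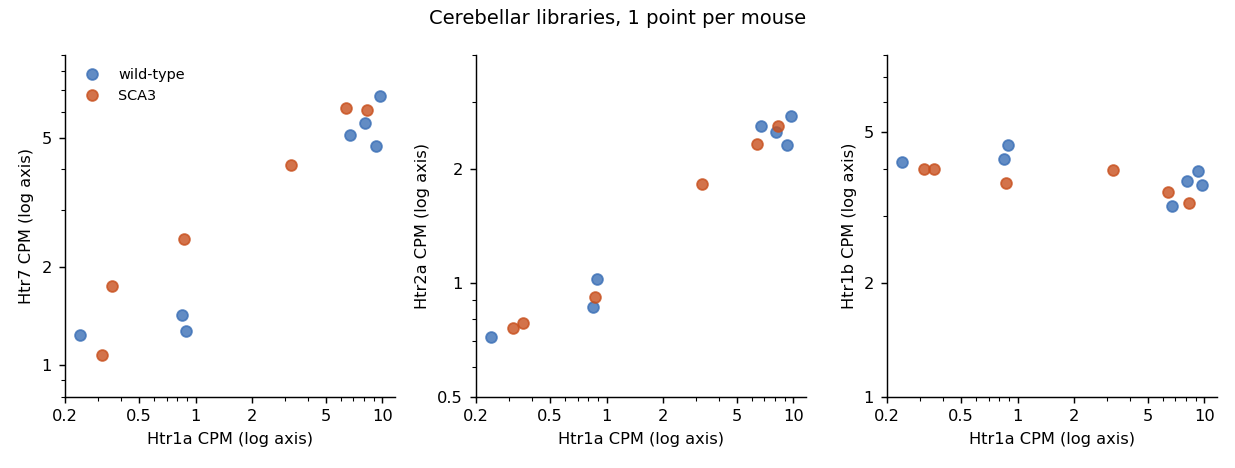
Htr7, Htr2a and Htr1b against Htr1a in the 13 cerebellar libraries, in CPM on log axes, wild-type in blue and SCA3 in orange. Htr7 and Htr2a are low in the 6 libraries with Htr1a under 1 CPM, which come from both genotypes, and Htr1b stays between 3.19 and 4.62 CPM throughout.

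Htr2c varied widely in cortex. Its 4 lowest cortical values were 14.03 and 21.6 CPM in SCA3 mice 9083515 and 7267054 and 18.2 and 48.5 CPM in wild-type mice 9083373 and 9082857, and the other 9 libraries were between 101 and 178 CPM. The same 4 libraries had the 4 highest Htr5a values, 26.8 to 37.0 CPM, against 23.8 CPM or less elsewhere. They held 3 of the 4 lowest Htr1a values, 2 of the 4 lowest of Htr1b and of Htr7, and 1 of the 4 lowest and 1 of the 4 highest of Htr2a. They also had the 4 lowest sums of hippocampal markers (3 of 8 measured), at up to 175 CPM with the next at 258 CPM, and 3 of the 4 highest sums of cortical and hippocampal glutamatergic markers (7 of 11 measured). Sums of oligodendrocyte markers had 3 of their 4 highest values there. Those of interneuron, microglial and cerebellar markers, and of the 3 measured genes of the serotonergic list, had 3 of their 4 lowest. The part of these cells in the Htr2c levels was not tested. Some sharing also arises for any list when 4 of 13 libraries are taken, and the share over all genes was not computed. Brainstem Htr2c did not vary in this way, its highest wild-type value being 1.28-fold its lowest.

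Receptors were compared with each other and with all other genes by Pearson correlation of log2 CPM over the 53 libraries, as a description, since the libraries share mice and group differences. Htr1a and Htr7 were the closest pair of receptors (r = 0.92), and their deviations from the group means also went together (r = 0.80). Htr1b was apart from Htr1a (r = -0.11), Htr7 (r = -0.20) and Htr5a (r = -0.16). Deviations of Htr1b ran against those of Htr5a (r = -0.40).

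The genes whose log2 CPM was most like that of a receptor were Rasgrf2, Dleu7 and Atg9b for Htr1a (r = 0.95, 0.94 and 0.94), S100pbp, Cpsf3 and Ago4 for Htr1b (0.95, 0.93 and 0.91), and Slitrk3, 2610316D01Rik and Creg2 for Htr2a (0.96 each). They were Dlk1, Ctxn2 and Gpr101 for Htr2c (0.96, 0.93 and 0.91), Atcay, Ephb3 and Acsl5 for Htr5a (0.95, 0.95 and 0.94), and Oprl1, Tox2 and Dleu7 for Htr7 (0.97, 0.96 and 0.96). Dleu7 was thus near both Htr1a and Htr7. Oprl1, which encodes the nociceptin receptor, averaged 95.3 CPM in wild-type brainstem, 63.1 CPM in cortex, 52.4 CPM in striatum and 24.1 CPM in cerebellum, so that it shared the highest and the lowest region with Htr7.

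By deviations from the group means, which leave out region and genotype, the closest genes were Elfn1, Vstm2a and Dleu7 for Htr1a (r = 0.91, 0.91 and 0.90) and Resp18, Oprl1 and Dleu7 for Htr7 (0.93, 0.90 and 0.90). Htr2c went with Dlk1, Gpr101 and Zcchc12 (0.92, 0.88 and 0.88). Htr1b went with Gnal, Zswim5 and S100pbp (0.88, 0.88 and 0.85), Gnal encoding the G protein subunit through which striatal neurons couple dopamine and adenosine receptors to cAMP. Htr2a went with Scn3a, Gpr26 and Shroom2 (0.84, 0.83 and 0.83) and Htr5a with Ephb3, Baalc and Ppme1 (0.84, 0.81 and 0.80).

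Other genes of serotonin signalling were taken from lists of transmitter handling, receptor partners and G protein transduction, 59 measured genes in all. In striatum 9 of the 59 were called lower in SCA3 and 0 higher by edgeR's likelihood ratio test, 15.3% against 7.54% of all genes, with a median log2 fold change of -0.11. Among all genes 677 were called lower and 256 higher there, so striatal calls leaned lower in general. In brainstem 1 was higher and 1 lower (3.39%, against 1.92% of all genes), and in cerebellum and cortex 0 were called by edgeR, DESeq2 or limma-voom. At an unadjusted p below 0.05 there were 4 higher and 18 lower in striatum (37.3%, against 23.2% of all genes), 3 higher and 2 lower in brainstem (where 1640 of 12372 genes had such a p), 1 lower in cerebellum (205 of all genes) and 2 lower in cortex (503 of all genes). The number called lower in striatum was 8 by the quasi-likelihood test, 10 by DESeq2 and 6 by limma-voom, and 0 were called higher by these tools.

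The striatal count of pathway genes moved with the libraries used, as did that of all genes. Without wild-type mice 7267058 and 7267059, the thalamic-rich striatal libraries, 5 of 59 were called lower (8.47%, against 2.34% of all genes). Without SCA3 mouse 7267054, 7267056 or 9083515 it was also 5 in each case, with 3.23%, 2.43% and 2.40% of all genes called. Without wild-type mouse 9082857 there were 3 higher and 16 lower (32.2%, against 14.8% of all genes), and without 9083371 there were 2 higher and 15 lower (28.8%, against 13.3%). In the second mouse series alone 8 were higher and 13 lower (35.6%, against 18.6% of all genes), and in the largest series alone 0 were called by edgeR (18.6% at an unadjusted p below 0.05, against 8.77% of all genes). With a RIN of at least 7, 2 were lower (3.39%, against 1.12% of all genes). In striatal libraries alone 1 was called lower (1.69%, against 0.711% of all genes), and with the projection neuron score as covariate 0 were called by edgeR, with 8.47% at an unadjusted p below 0.05 against 4.55% of all genes. Thalamic markers, 7 of 12 called lower, moved the same way as these genes.

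Among transmitter handling genes, 10 of 16 measured, Qdpr was lower in striatum (log2 fold change -0.70, FDR 1e-04) and in brainstem (-0.64, FDR 0.00015). In brainstem 1.92% of all genes were called. All 8 oligodendrocyte markers were negative there too (median -0.39, 1 called by edgeR and 3 by DESeq2). By edgeR 2 of 7 astrocyte and 1 of 7 microglial markers were called lower, and the mean RIN was 7.24 in wild-type and 7.78 in SCA3. In striatum 3 of 8 oligodendrocyte and 2 of 7 astrocyte markers were called lower, against 7.54% of all genes. The part of these markers and of RIN in the Qdpr differences was not tested. Qdpr encodes dihydropteridine reductase, which regenerates the cofactor of tryptophan hydroxylase. Aldh2, an aldehyde dehydrogenase that acts after monoamine oxidase, was called higher in brainstem by edgeR's likelihood ratio test (0.27, FDR 0.049). DESeq2 also called 1 gene of this list higher there, and the quasi-likelihood test and limma-voom called 0.

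Among receptor partners and control genes, 2 of 15 were called lower in striatum by edgeR, against 7.54% of all genes called: Adarb1 (-0.72, FDR 0.020) and Adarb2 (-0.91, FDR 0.027). DESeq2 called 2 as well, and limma-voom called 0 with or without the mouse as a replicate block, 4 of the 15 being lower at an unadjusted p below 0.05 in edgeR. Adarb1 encodes an RNA editing enzyme that edits Htr2c transcripts, and Adarb2 a relative without known editing activity. Adarb1 is also on the thalamic marker list, and its editing of Htr2c cannot be read from gene counts.

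Among transduction genes of striatum, 0 of 8 on the Gi/o side (3 with an unadjusted p below 0.05, 0 called by DESeq2 or limma-voom), 1 of 10 on the Gq side and 5 of 16 on the Gs side were called lower by edgeR, where 7.54% of all genes were called. On the Gs side the quasi-likelihood test called 4, DESeq2 5 and limma-voom 4, and each of them called 1 on the Gq side. The Gq gene was Plcb4, a phospholipase C beta (-1.33, FDR 0.0039), with means of 92.4 CPM in wild-type and 36.8 CPM in SCA3. The Gs genes were Gnas, the stimulatory G protein subunit (-0.69, FDR 0.00079), the adenylyl cyclases Adcy2 (-0.48, FDR 0.046), Adcy6 (-0.59, FDR 0.00099) and Adcy8 (-1.12, FDR 0.00099), and Prkaca, a catalytic subunit of protein kinase A (-0.26, FDR 0.020). Other members went up: 7 of 16 Gs and 4 of 10 Gq genes had positive log2 fold changes. At an unadjusted p below 0.05 in edgeR, 2 Gs genes were higher and 6 lower, and 2 Gq genes higher and 1 lower. Median summed levels were 6320 CPM in wild-type and 6760 CPM in SCA3 for Gs, and 3340 and 4510 CPM for Gq. Gnal, among the genes most like Htr1b, was at 0.36 (FDR 0.18).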

How the data were processed

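The authors deposited counts of reads per gene without normalization, as whole numbers for 53 libraries. Per the paper's methods and the submitters' processing notes, poly-A libraries without strand information were read in pairs, cleaned with Sickle and cutadapt 1.10, aligned to GRCm38 with STAR 2.3.0e keeping unique alignments, and counted with HTSeq 0.6.1 over RefSeq genes. The authors kept genes averaging above a minimum CPM. Reads shared by overlapping genes or near-identical copies are uncertain. Library totals were 31.7 to 76.7 M counts.

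Counts were analysed with edgeR 4.0.16 in R 4.3.3: TMM factors, a negative binomial model in which each combination of genotype and region had its own level, and likelihood ratio tests, with Benjamini-Hochberg adjustment over all 12372 genes. Genes with an FDR below 0.05 were called. Standard errors and 95% intervals came from the fit's information matrix. The combined test covered genotype and its 3 interactions with region. Log2 CPM used a prior count of 2. Exon lengths came from GENCODE vM21 (GRCm38), promoters from RefSeq (GRCm38.p6), in which all 6 receptors matched. Groups, mouse numbers, ages and RIN came from the sample labels. The test procedure was tested on simulated data.

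Named genes were all receptors, the 3 genes most correlated with each by either measure, and called genes of the pathway lists. Some marker genes and an overlapping antisense gene were named as well. The members and lists were chosen with earlier results of these data known. Alternatives were DESeq2 1.42.0 size factors and test, the quasi-likelihood test, limma-voom (limma 3.58.1), a count minimum of 10 in every library, RIN and mouse number series as covariates, RIN of at least 7, each region or series alone, and each mouse left out. Regions of 1 mouse are paired by the animal (mean correlation of deviations between regions 0.09 to 0.19). Fits with the mouse as a replicate block were run for that reason. All columns had a sample. Promoter sequence beyond the first annotated transcript start was not printed.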

Additional observations from a re-analysis of the deposited data

Results flagged for a closer look

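Of 48 groups of receptor values screened, 4 held a library far from the others by Dixon's criterion, and chance gives about 1 in 20. Wild-type mouse 9082857 was highest for Htr2a in striatum, at 21.6 CPM with the next at 13 CPM, and for Htr1b in brainstem, at 4.71 CPM with the next at 3.68 CPM. Without this mouse the striatal log2 fold change of Htr2a was 1.1 (FDR 0.00055). Wild-type mouse 9083371 was highest for Htr1b in cortex, at 6.69 CPM with the next at 4.24 CPM. SCA3 mouse 9083514 was highest for Htr5a in striatum, at 16 CPM with the next at 12.9 CPM. Causes were not tested.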

How the results depend on the processing

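Of 768 receptor results under other tools, scalings, filters, covariates and subsets, 725 kept their direction and their side of the threshold, 8 lost and 17 gained a call, and 18 changed direction, none of them called in either fit. These counts leave out the fits chosen after the data were seen (the marker scores and the exclusion of 2 striatal libraries) and those without 1 mouse. In striatum, Htr7 lost its call with limma-voom without the replicate block (-1.35) and with the mouse as a random replicate block (-1.37), with RIN of at least 7 (-1.08), with striatal libraries alone (-1.44), in the largest mouse series (-1.91), also with striatal libraries alone plus a thalamic (-0.958), projection neuron (-0.526) or choroid plexus (-1.1) score, and without wild-type mice 7267058 and 7267059 (-1.27). Htr2a lost it with RIN of at least 7 (0.877), in the largest series (1.22), in striatal libraries alone with the projection neuron score (0.61) and without those mice (0.786). Htr1a gained a call with DESeq2 (-1.74) and the series covariate (-1.79), and Htr1b in the second series (0.923). The combined test called Htr2a with voom (FDR 0.034), the random block (0.0426) and the series covariate (0.0323). Adding the replicate block to voom changed no genotype call of a receptor, the FDR of striatal Htr7 being 0.054 in both.

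The genes called in brainstem were 392 with the region alone and 50 in the second series. In cerebellum they were 5 with voom, 5 with the block and 21 alone. In cortex they were 11, 9 and 35, with 12 in the largest and 60 in the second series. In striatum they were 139 with RIN of at least 7, 88 alone, 30 in the largest and 2306 in the second series, 110, 33 and 95 in striatal libraries alone with the thalamic, projection neuron and choroid plexus scores, and 289 without the 2 mice. The combined test called 363 with voom, 260 with the block, 324 with RIN of at least 7 and 263 in the largest series, and region dependence 1 with the quasi-likelihood test, 3, 4 and 5 with voom, the block and RIN of at least 7. Leaving out each mouse gave 120 to 309 genes in brainstem, 5 to 12 in cerebellum, 11 to 28 in cortex, 297 (without 9083515) to 1833 (without 9082857) in striatum, 278 to 1049 in the combined test and 3 to 263 for region dependence.

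Directions of uncalled log2 values changed in the largest series in brainstem for Htr1b (0.0137), Htr2a (0.288) and Htr2c (0.0644), and in the second for brainstem Htr5a (0.0428) and cortical Htr7 (0.142). They changed with voom and the block for cerebellar Htr2c (0.111 and 0.107), with voom for cerebellar Htr7 (0.00475), and in striatal Htr2c with RIN of at least 7 (0.02) and in striatal libraries alone with the projection neuron score (0.0511). Between brainstem and striatum Htr2a was at -0.00339 with RIN of at least 7. Between cortex and striatum, voom, the random and the fixed block gave -0.159, -0.196 and -0.0201 for Htr2c and 0.161, 0.163 and 0.0163 for Htr7, which was at 0.0475 with the RIN covariate and 0.162 with RIN of at least 7. The causes were not tested.

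Leaving out each mouse gave log2 ranges of -0.112 to 0.0315 for Htr2c and -0.0766 to 0.0322 for Htr5a in brainstem, and -0.267 to 0.164 for Htr7 in cerebellum. In cortex they were -0.239 to 0.0552 for Htr1a, -0.0144 to 0.307 for Htr1b, -0.373 to 0.0463 for Htr2c, -0.0818 to 0.175 for Htr5a and -0.253 to 0.0538 for Htr7. In striatum they were -2.1 to -1.45 for Htr1a, 0.831 to 1.1 for Htr2a, -0.147 to 0.0146 for Htr2c and -1.86 to -1.26 for Htr7. The combined FDR ranged from 0.00604 to 0.26 for Htr2a and 0.0316 to 0.534 for Htr7. Between wild-type regions the ranges were -0.163 to 0.0689 for Htr1b (cerebellum and cortex), and for cortex and striatum -0.056 to 0.464 for Htr1a, -0.103 to 0.342 for Htr2c and -0.326 to 0.14 for Htr7.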
